A study of Macaca fascicularis with 23 samples.

Results

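Markers of the cells that line and patrol the liver sinusoid were examined in cynomolgus monkeys (Macaca fascicularis) dosed with ciprofibrate, a fibrate and agonist of PPAR-alpha, a nuclear receptor of fat metabolism. The 10 genes were chosen by name, with earlier results of these data known. Of them, 7 are markers of endothelial cells (PECAM1, FLT1, TEK, STAB1, ENG, FCN3 and VCAM1). The other 3 are markers of Kupffer cells, the resident macrophages of the liver (CD5L, CD14 and CD163). Every probe set whose array annotation named 1 of the 10 was taken, which gave 20 of the 12625 probe sets on the array, for 10 of the 8229 genes that a probe set names alone. All 10 symbols were also found in the RefSeq annotation of the macaque genome.

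The groups, with 1 array per animal, were ciprofibrate at 400, 150, 30 and 3 mg/kg/day for 15 days with 4 animals each, vehicle for 15 days with 3 animals, the 400 mg/kg/day dose given over 4 days to 2 animals, and vehicle for 4 days with 2 animals. All 23 samples were total RNA from 1 liver lobe, and the labels used here give neither age nor sex. The array carries probes for human transcripts, so an intensity, or a sum of intensities over 1 fixed list of probe sets, is compared between animals only, and levels of different genes are not ranked. In whole liver RNA, fewer cells of a type and less RNA per cell cannot be told apart.

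Liver sinusoids are lined by a fenestrated endothelium that filters plasma to the hepatocytes and clears waste molecules through scavenger receptors. Kupffer cells sit on that lining, take up bacteria and damaged red cells, and sense endotoxin. The 10 genes cover adhesion (VCAM1, PECAM1), growth factor and TGF-beta family signalling (FLT1, TEK, ENG), scavenging (STAB1, CD163, CD5L) and the recognition of microbes (FCN3, CD14). Several of them are also made elsewhere: in human liver, hepatocytes make FCN3 and CD14, and VCAM1 can appear on stellate cells.

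The arrays' median intensities lay between 55 and 71.6, and the mean correlation of an array with the others of its group ran from 0.846 to 0.921 across the arrays. The lowest of these belonged to replicate 4 of the 30 mg/kg/day group. The ratio of the 5′ to the 3′ probe set of beta-actin, a measure of RNA and labelling quality, had a median of 0.67 at 400 mg/kg/day and 0.58 in vehicle animals at 15 days. At 4 days the medians were 1.12 at 400 mg/kg/day and 0.87 in vehicle animals. Across the 3 lower doses at 15 days the ratio ran up to 0.98, so arrays of the 2 days overlapped there. Between groups of the same dose they did not. Vehicle animals had 0.54 to 0.61 at 15 days and 0.75 to 0.99 at 4 days. At 400 mg/kg/day the ranges were 0.55 to 0.84 and 1.02 to 1.21. The part of this difference in the comparisons between the days was not tested. The hepatocyte gene ALB averaged 23610 ± 1993 at 400 mg/kg/day and 23515 ± 1606 in vehicle animals at 15 days (SD, n = 4 and 3), and 14976 ± 79.7 at 400 mg/kg/day and 16522 ± 228 in vehicle animals at 4 days (n = 2 each).

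Tests were moderated statistics from limma, on log2 of the intensity plus 16, fitted over all 23 arrays and adjusted by the Benjamini-Hochberg method over 7535 probe sets. A probe set is called changed at an adjusted p under 0.05. Of the 20 marker probe sets, 17 had a mean over all arrays high enough to be tested, and all 10 genes kept at least 1 tested probe set. The 3 that were not tested were all of FLT1, with mean log2 values of 5.01, 5.70 and 5.78 against a limit of 5.80, and the nearest tested marker was the CD163 probe set 36884_at at 5.95. Where a gene had several tested probe sets, the one with the highest mean is described first.

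After 15 days at 400 mg/kg/day, VCAM1 fell to less than 0.5 of its level in vehicle animals and was the 1 marker that passed the test. CD5L, CD14, FCN3 and 1 TEK probe set were also lower in all 4 treated animals than in all 3 vehicle animals, without passing it. Of all tested probe sets, 6.53 percent were so placed. STAB1, FLT1 and CD163 differed from vehicle by less than the spread between animals. A slope over vehicle and the 4 doses was called lower for VCAM1, CD5L and CD14. For VCAM1 the call held whichever single animal was left out, but its other probe set was not called. The CD5L and CD14 calls were each lost without some single animals. The CD14 mean was not lower at 3 mg/kg/day than in vehicle animals.

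The count of 1 of 17 tested probe sets called lower compares with 0.876 percent of all tested probe sets called lower in this comparison, and 2.14 percent called in either direction. No marker was called higher, where 1.26 percent of all tested probe sets were. Before adjustment, 7 of 17 had a p under 0.05 on the lower side, where 5.84 percent of all probe sets did, and none on the higher side, where 6.64 percent did. In all, 13 of 17 log2 changes were below 0, against 52.6 percent of all tested probe sets, and the markers' median log2 change was -0.39, against -0.03 over all tested probe sets. The markers' median was -0.18 without vehicle replicate 2, and -0.24 without replicate 3 at 400 mg/kg/day. Because the markers were chosen with earlier results of these data known, their shares here and below are descriptions and no test of the set.

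VCAM1 encodes the endothelial receptor that binds an integrin of lymphocytes and monocytes and lets them attach to the vessel wall. Its probe set 41433_at had intensities of 58.4, 64, 101.2 and 64.9 at 400 mg/kg/day, against 146.9, 218.2 and 204.6 in vehicle animals at 15 days. All 4 animals at the top dose lay below all 3 vehicle animals. The log2 change was -1.23 ± 0.26 (SE), a ratio of 0.426 on intensities with 16 added, with an adjusted p of 0.0096 from limma. The change stayed past the threshold when most single animals were left out, but without vehicle replicate 2 it was -1.13 with an adjusted p of 0.063.

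At the lower doses VCAM1 41433_at lay between these levels. The intensities were 164.1, 155.8, 197.0 and 90.9 at 3 mg/kg/day, 149.9, 140.8, 113.2 and 152.0 at 30 mg/kg/day, and 92.7, 149.2, 134.9 and 130.3 at 150 mg/kg/day. The group means were 189.9 ± 37.9 in vehicle animals, 152.0 ± 44.4 at 3 mg/kg/day, 139.0 ± 17.9 at 30 mg/kg/day, 126.8 ± 24.1 at 150 mg/kg/day and 72.1 ± 19.6 at 400 mg/kg/day (SD). Each mean was below the one before it, but neighbours from vehicle to 150 mg/kg/day differed by no more than their spread. None of the 3 lower doses passed the test, with adjusted p of 0.72, 0.64 and 0.45 from the lowest to the highest of them.

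The second VCAM1 probe set, 583_s_at, gave 48.3, 44.9, 46.1 and 11.1 at 400 mg/kg/day, against 77.4, 138.5 and 96.2 in vehicle animals at 15 days. These groups did not overlap either. Its log2 change of -1.21 ± 0.46 was close in size to that of the other probe set, with a larger error, and did not pass the test (adjusted p = 0.23 from limma). Over the 23 arrays the 2 probe sets had a Pearson r of 0.36, and they are separate measurements on the same RNA.

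**Figure D1:**
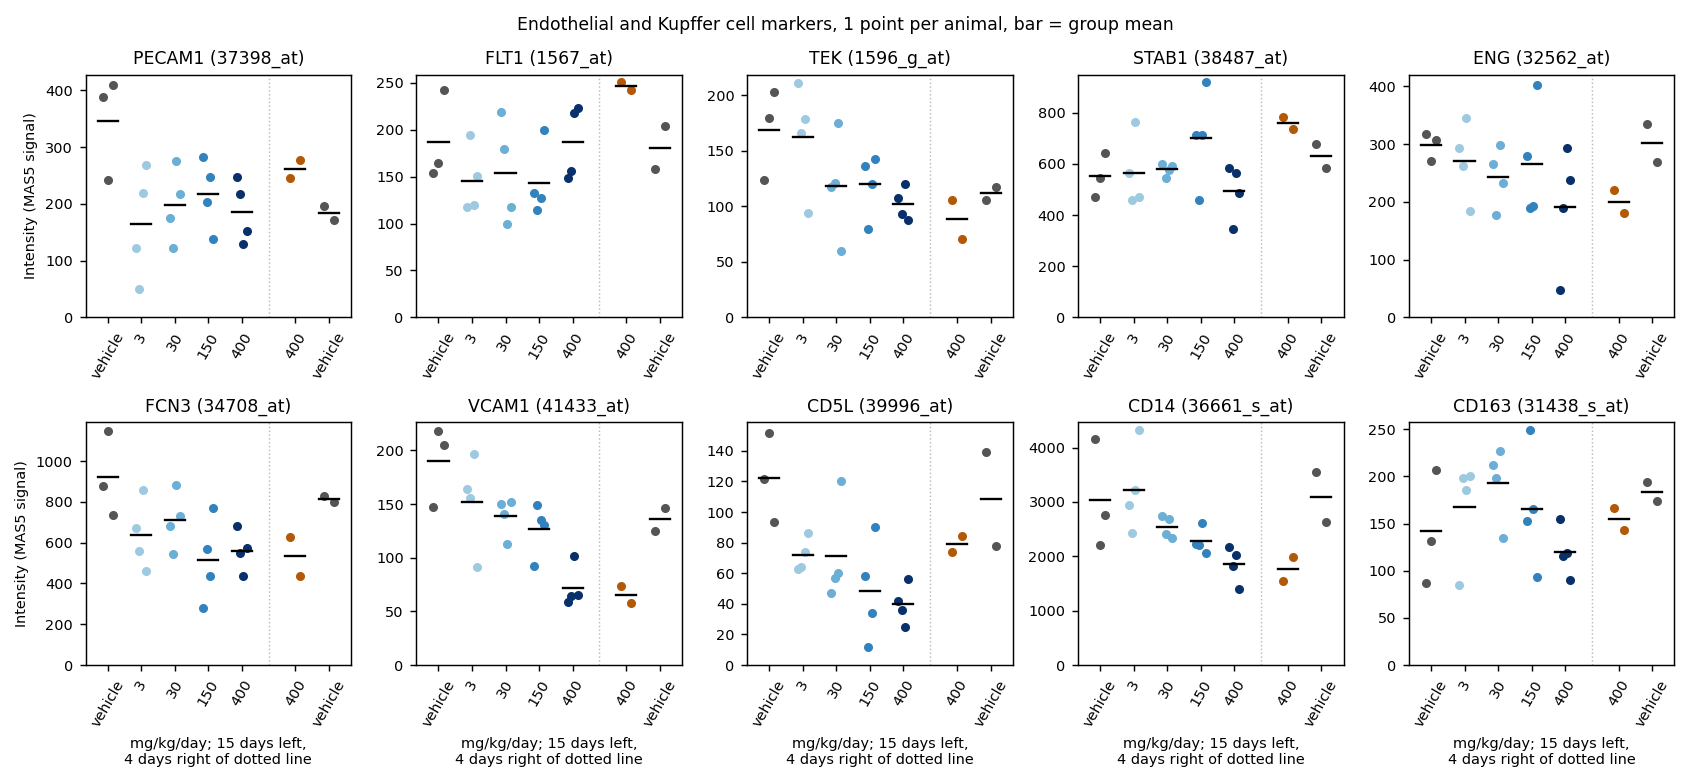
Intensity of the 10 markers (MAS5 signal, linear axis from 0, 1 panel per gene with its highest probe set) in each animal by dose and day; points are animals and bars are group means. VCAM1 means over the 15-day dose series are 189.9 in vehicle animals, 152.0, 139.0 and 126.8 at 3, 30 and 150 mg/kg/day, and 72.1 at 400 mg/kg/day, while the STAB1 and FLT1 points of those groups overlap.

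CD5L encodes a soluble scavenger protein secreted by macrophages, also called AIM. It had intensities of 42.0, 35.8, 25.0 and 56.4 at 400 mg/kg/day, against 121.6, 151.7 and 93.3 in vehicle animals at 15 days. The highest of the treated animals lay well below the lowest vehicle animal. The mean of the treated animals, 39.8, was near the limit for testing, an intensity of 39.7. The log2 change was -1.32 ± 0.38, and its adjusted p of 0.077 from limma did not pass the threshold. With a pseudocount of 64 in place of 16 the CD5L change was -0.84, and that of VCAM1 41433_at was -0.90.

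At 150 mg/kg/day CD5L had intensities of 58.4, 11.5, 34.0 and 90.5, all below the vehicle animals, as were 4.98 percent of all tested probe sets, with a log2 change of -1.24 ± 0.38 (adjusted p = 0.16 from limma). At 3 mg/kg/day it had 62.6, 64.1, 73.7 and 86.1, which again lay below all vehicle animals, as did 4.86 percent of all tested probe sets, for a log2 change of -0.64 ± 0.38 (adjusted p = 0.60). At 30 mg/kg/day it had 47.4, 56.6, 59.9 and 120.6, so that 1 animal lay inside the vehicle range. CD5L was thus lower on average in every dose group than in vehicle animals, with no single dose called.

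CD14 encodes the co-receptor that hands endotoxin to TLR4. Its intensities were 2171.9, 1813.9, 2023.7 and 1393.5 at 400 mg/kg/day, against 4153.5, 2203.7 and 2761.1 in vehicle animals at 15 days. The groups did not overlap, though the highest treated animal and the lowest vehicle animal were close. The log2 change of -0.68 ± 0.21 had an adjusted p of 0.10 from limma, and it rested on the vehicle animals. Without vehicle replicate 2 it was -0.89 with an adjusted p of 0.045, and without vehicle replicate 1 it was -0.43 with an adjusted p of 0.52.

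CD163 encodes the macrophage receptor that takes up complexes of haptoglobin and haemoglobin. Its probe set 31438_s_at had 155.0, 115.7, 118.5 and 90.2 at 400 mg/kg/day, against 86.6, 131.3 and 207.3 in vehicle animals at 15 days. Every treated animal lay inside the vehicle range. The log2 change was -0.16 with a 95% interval of -0.82 to 0.50, which holds 0 and also a change as large as the -0.68 of CD14. The second probe set, 36884_at, ranged from 9.4 to 95.2 at 400 mg/kg/day and from 11.5 to 154.9 in vehicle animals, and had no call (adjusted p = 0.87).

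FCN3 encodes ficolin-3, a plasma lectin that starts the lectin pathway of complement. It had 680.8, 548.8, 435.9 and 571.6 at 400 mg/kg/day, against 878.3, 1147.6 and 733.5 in vehicle animals at 15 days. The groups did not overlap, and the log2 change of -0.70 ± 0.26 had an adjusted p of 0.23 from limma. At 150 mg/kg/day the values were 282.0, 568.0, 439.1 and 767.9, with a log2 change of -0.88 ± 0.26 and an adjusted p of 0.15. FCN3 averaged 919.8 ± 210.1 in vehicle animals, 637.9 ± 171.1 at 3 mg/kg/day and 709.8 ± 140.5 at 30 mg/kg/day, and neither of these doses was called.

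TEK encodes TIE2, the receptor of the angiopoietins. Its probe set 1596_g_at had 107.3, 92.7, 119.9 and 87.2 at 400 mg/kg/day, against 123.8, 179.1 and 202.9 in vehicle animals at 15 days. The groups did not overlap, and the log2 change of -0.63 ± 0.30 was not called (adjusted p = 0.40). The second probe set, 1595_at, had 13.3, 47.9, 35.8 and 25.7 at 400 mg/kg/day, against 20, 29.7 and 38.9 in vehicle animals. That probe set gave a log2 change of -0.00 with a 95% interval of -1.06 to 1.06, and its r with the first was -0.15 over the 23 arrays. The means of 1595_at were 30.7 at 400 mg/kg/day and 29.5 in vehicle animals at 15 days. Both lay below the limit for testing, an intensity of 39.7. Whether the TEK probe sets differ in this comparison therefore cannot be read from 1595_at.

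ENG encodes endoglin, a co-receptor of the TGF-beta family on endothelial cells. It had 47.9, 189.6, 292.7 and 237.4 at 400 mg/kg/day, against 317.0, 271.4 and 307.1 in vehicle animals at 15 days. Replicate 1 had the lowest value, and replicate 3 lay inside the vehicle range. The log2 change was -0.81 ± 0.37 (adjusted p = 0.36 from limma), and -0.31 without that replicate 1 (adjusted p = 0.78).

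PECAM1 encodes CD31, an adhesion molecule of endothelial junctions. Its probe set 37398_at had 247.6, 216.8, 130.1 and 152.0 at 400 mg/kg/day, against 389.0, 241.8 and 410.1 in vehicle animals at 15 days. The log2 changes were -0.85 at 400, -0.64 at 150, -0.78 at 30 and -1.17 at 3 mg/kg/day, with adjusted p of 0.34, 0.56, 0.51 and 0.29. The doses had no clear order. Without replicate 2 at 3 mg/kg/day the change at that dose was -0.76. The 2 other probe sets gave -0.28 (37397_at) and 0.12 (268_at) at 400 mg/kg/day, and their r with the first was 0.01 and -0.00 over the 23 arrays.

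STAB1 encodes stabilin-1, a scavenger receptor of sinusoidal endothelium. It had 585.3, 343.9, 562.2 and 484.3 at 400 mg/kg/day, against 468.5, 544.8 and 644.0 in vehicle animals at 15 days. The groups overlapped, and the log2 change was -0.17 with a 95% interval of -0.62 to 0.27. FLT1 encodes VEGF receptor 1. Its probe set 1567_at had 149.0, 155.6, 218.2 and 222.8 at 400 mg/kg/day, against 153.4, 164.3 and 242.0 in vehicle animals at 15 days. The means of the 2 groups nearly coincided, with a log2 change of 0.00 and a 95% interval of -0.55 to 0.56. The other 2 tested FLT1 probe sets gave 0.05 (1964_g_at) and 0.13 (991_g_at).

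**Figure D2:**
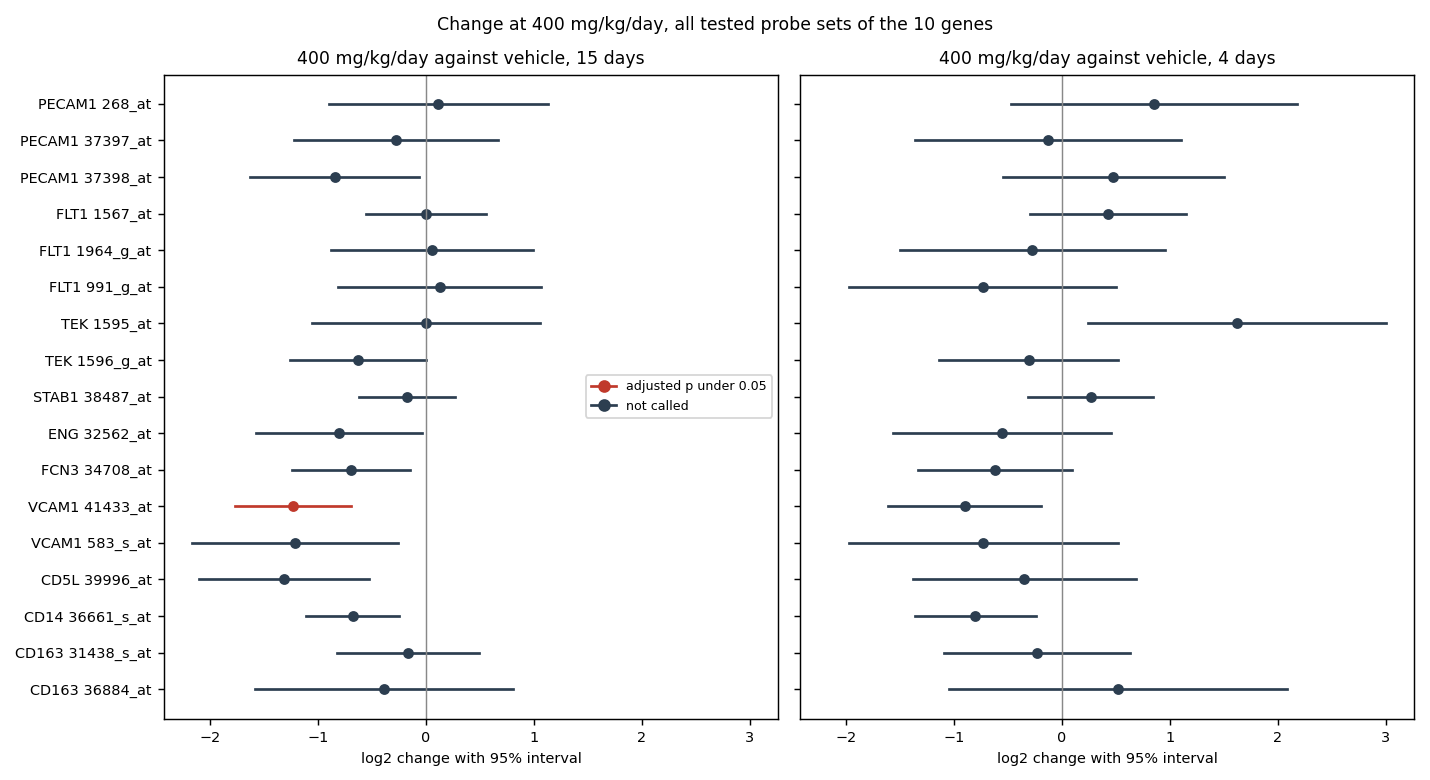
Log2 change with its 95% interval for the 17 tested marker probe sets, at 400 mg/kg/day against vehicle after 15 days (left) and after 4 days (right). Red marks an adjusted p under 0.05, reached by VCAM1 41433_at alone, at 15 days, at -1.23.

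In all, 6 of the 17 tested probe sets had no overlap between 400 mg/kg/day and vehicle at 15 days with the treated animals lower, where 6.53 percent of all tested probe sets did. They were both VCAM1 probe sets, CD5L, CD14, FCN3 and TEK 1596_g_at. None had no overlap with the treated animals higher, where 6.72 percent of all tested probe sets did. By cell type, 9 of 13 endothelial probe sets and 4 of 4 macrophage probe sets were below 0, with median log2 changes of -0.28 and -0.54.

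**Figure D3:**
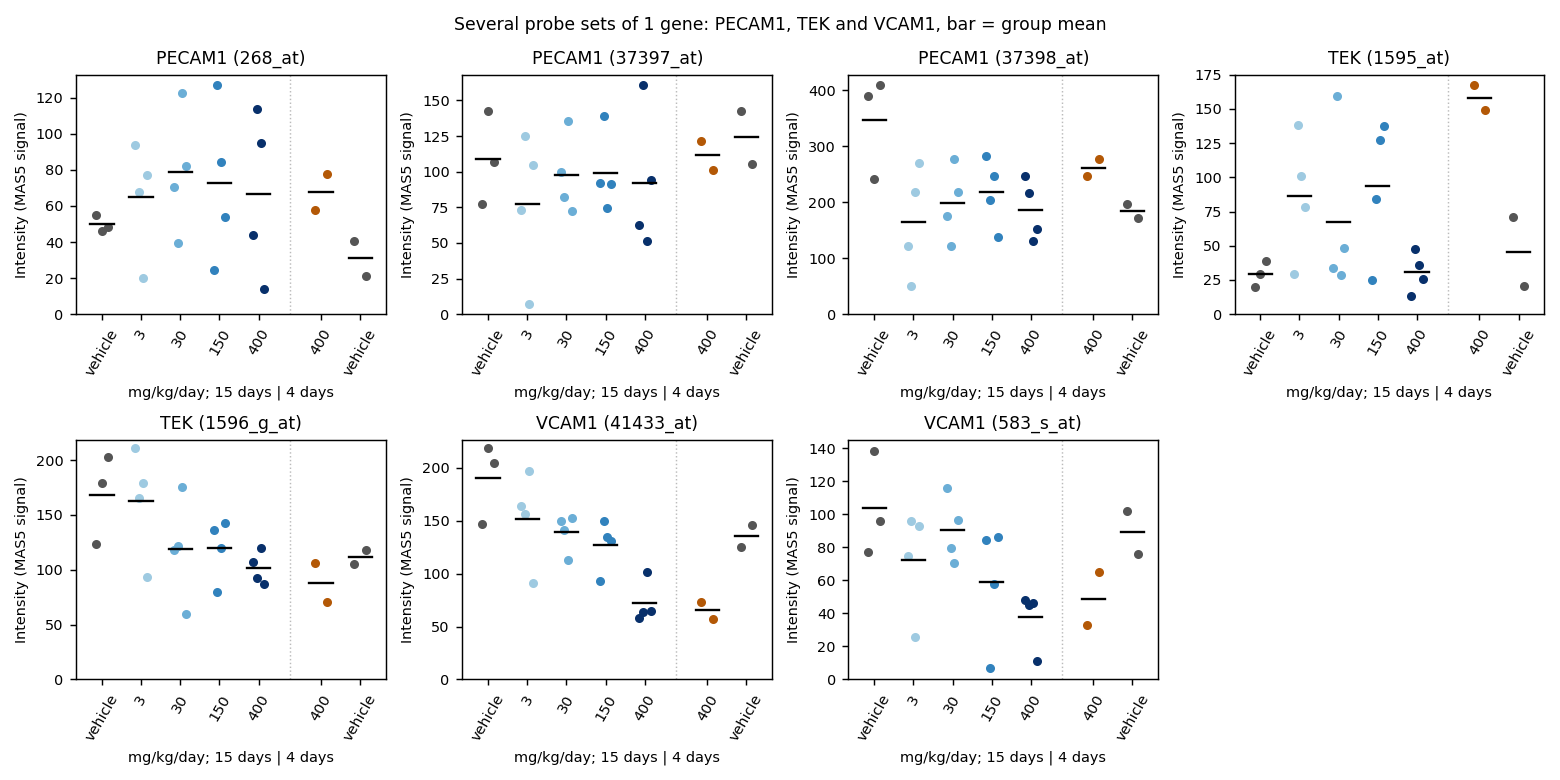
Intensity (MAS5 signal, linear axis from 0) in each animal for the tested probe sets of PECAM1, TEK and VCAM1, by dose and day; bars are group means. Both VCAM1 probe sets lie lower at 400 mg/kg/day than in vehicle animals at both days, while the PECAM1 and TEK probe sets differ among themselves.

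A slope across vehicle and the 4 doses, taken as 5 equally spaced steps, asks whether a marker moved with dose over 15 days. It was called lower for 3 of the 17 tested probe sets, against 1.31 percent of all tested probe sets called lower and 3.11 percent called either way, and no marker was called higher. The 3 were VCAM1, CD5L and CD14. The slope shares the 400 mg/kg/day and vehicle animals with the comparison above and is no separate evidence.

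VCAM1 41433_at fell by 0.27 ± 0.06 per dose step on the log2 scale (adjusted p = 0.0081 from limma). The call held in each of 19 fits with 1 of the 15-day animals missing, with adjusted p between 0.0026 and 0.044.

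CD5L fell by 0.32 ± 0.08 per dose step (adjusted p = 0.032 from limma). Its group means were 122.2 ± 29.2 in vehicle animals, 71.6 ± 10.8 at 3 mg/kg/day, 71.1 ± 33.4 at 30 mg/kg/day, 48.6 ± 33.9 at 150 mg/kg/day and 39.8 ± 13.1 at 400 mg/kg/day. The largest step in these means was between vehicle and the lowest dose, and the 3 and 30 mg/kg/day groups did not differ beyond their spread. The call rested on few animals. Without vehicle replicate 1 or 2 the adjusted p was 0.091 or 0.12, and without replicate 1, 2 or 3 at 400 mg/kg/day it was 0.059, 0.064 or 0.087. With no filter on low values it was 0.051. With a pseudocount of 64 the slope was -0.20 and stayed called (adjusted p = 0.024).

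CD14 fell by 0.18 ± 0.05 per dose step (adjusted p = 0.024 from limma). It averaged 3039.4 ± 1004.3 in vehicle animals, 3227.2 ± 801.7 at 3 mg/kg/day, 2547.8 ± 203.9 at 30 mg/kg/day, 2274.3 ± 242.9 at 150 mg/kg/day and 1850.8 ± 338.4 at 400 mg/kg/day. Vehicle and 3 mg/kg/day overlapped widely, and the means were lower from 30 mg/kg/day on. The adjusted p was 0.16 without vehicle replicate 1, 0.075 without replicate 4 at 400 mg/kg/day, and 0.075 after scaling the arrays to 1 common median.

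FCN3, TEK 1596_g_at and the second VCAM1 probe set had slopes of -0.17, -0.16 and -0.28 with adjusted p of 0.12, 0.25 and 0.16. The slopes of STAB1, FLT1 and CD163 31438_s_at were -0.01, -0.00 and -0.04, with 95% intervals of -0.10 to 0.09, -0.12 to 0.12 and -0.18 to 0.11.

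**Figure D4:**
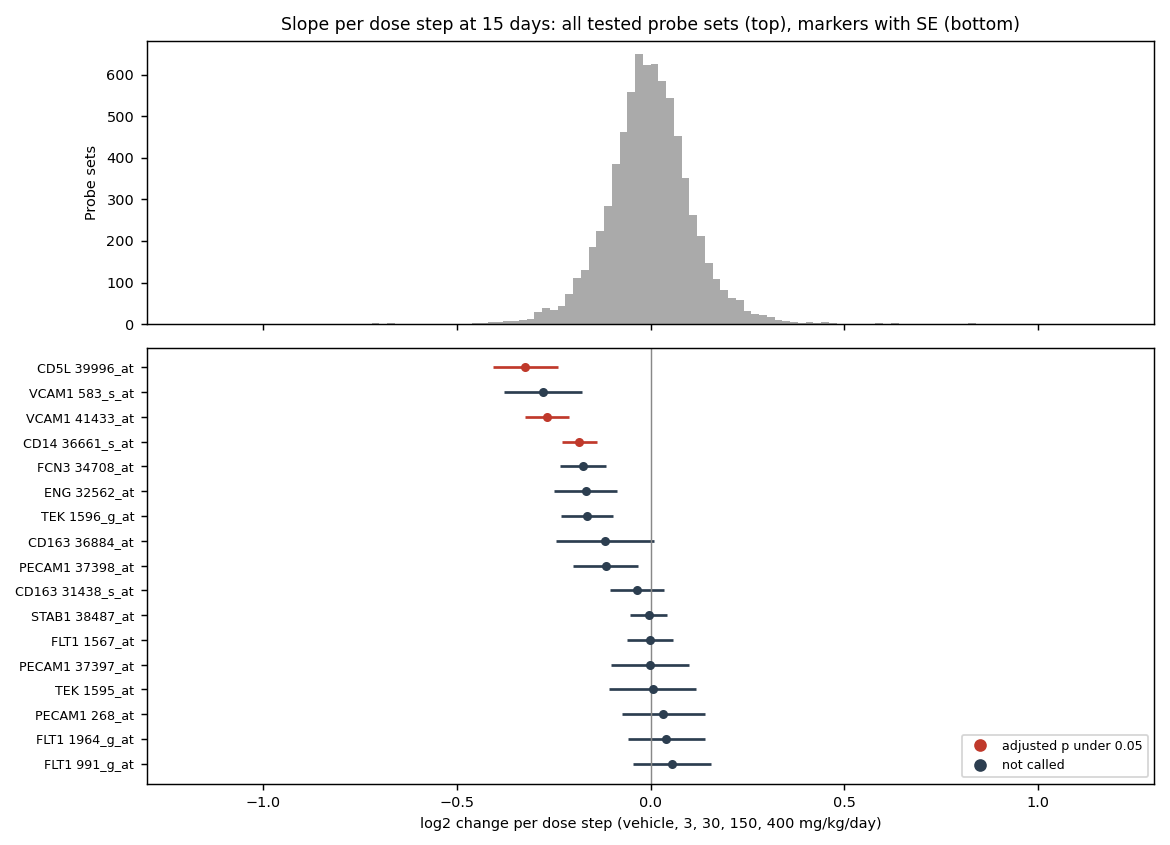
Slope per dose step at 15 days on the log2 scale, as a histogram of the 7535 tested probe sets (top, number of probe sets) and for each tested marker probe set with its SE (bottom). CD5L, VCAM1 41433_at and CD14, in red, had an adjusted p under 0.05, with slopes of -0.32, -0.27 and -0.18.

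The comparison of 400 with 3 mg/kg/day leaves out the vehicle animals. It called VCAM1 and CD14 lower, 2 of 17 tested probe sets, where 2.26 percent of all tested probe sets were called lower. CD14 had 2171.9, 1813.9, 2023.7 and 1393.5 at 400 mg/kg/day, against 2945.3, 2420.5, 3221.6 and 4321.6 at 3 mg/kg/day. All 4 animals at 400 mg/kg/day lay below all 4 at 3 mg/kg/day, as in 5.45 percent of all tested probe sets. The log2 change of -0.78 ± 0.19 had an adjusted p of 0.018 from limma, and 0.077 without replicate 4 at 3 mg/kg/day or 0.074 without replicate 4 at 400 mg/kg/day.

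VCAM1 41433_at differed by -0.91 ± 0.24 between 400 and 3 mg/kg/day (adjusted p = 0.030 from limma). Replicate 3 at 400 mg/kg/day, at 101.2, lay above replicate 4 at 3 mg/kg/day, at 90.9, so these groups overlapped. The adjusted p was between 0.068 and 0.099 without any 1 of replicates 1, 2 and 3 at 3 mg/kg/day or replicates 1, 2 and 4 at 400 mg/kg/day. After scaling the arrays to 1 common median, neither gene was called (adjusted p of 0.057 for VCAM1 and 0.051 for CD14). CD5L had no overlap between these doses and no call (log2 change -0.67 ± 0.35, adjusted p = 0.34).

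At 150 mg/kg/day against vehicle no marker was called, where 0.677 percent of all tested probe sets were. At 30 mg/kg/day none was called, where 0.0133 percent of all tested probe sets were. At 3 mg/kg/day neither a marker nor any other probe set was called. Before adjustment, limma gave p under 0.05 on the lower side for 2 of the 17 probe sets at 150 mg/kg/day (5.26 percent of all), 1 at 30 mg/kg/day (4.62 percent) and 1 at 3 mg/kg/day (5.02 percent). On the higher side it did so for 1 at 150 mg/kg/day (6.03 percent of all), 0 at 30 mg/kg/day (5.2 percent) and 1 at 3 mg/kg/day (5.03 percent). These shares are near the background. The markers' median log2 changes were -0.16 at 3, -0.27 at 30 and -0.22 at 150 mg/kg/day, and that at 3 mg/kg/day ran from -0.43 without vehicle replicate 1 to -0.046 without its own replicate 4.

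The mean of the 4 doses against vehicle also gave no call by limma among the markers, where 0.239 percent of all tested probe sets were called, with 4 of 17 at an unadjusted p under 0.05, all lower, where 4.79 percent of all tested probe sets were. These were CD5L at -0.98, PECAM1 37398_at at -0.86, VCAM1 41433_at at -0.62 and FCN3 at -0.62, with adjusted p of 0.21, 0.30, 0.26 and 0.28. All of these comparisons share the 3 vehicle animals.

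After 4 days at 400 mg/kg/day no marker was called, where 0.292 percent of all tested probe sets were, with 2 animals in each group. At an unadjusted p under 0.05, limma gave 2 of 17 lower (VCAM1 41433_at and CD14), where 3.76 percent of all tested probe sets were, and 1 higher (TEK 1595_at), where 3.88 percent were. VCAM1 41433_at had 73.2 and 57.4 at 400 mg/kg/day, against 125.2 and 146.1 in vehicle animals at 4 days. The log2 change was -0.90 ± 0.34 (adjusted p = 0.42). CD14 had 1546.5 and 1979.5 at 400 mg/kg/day, against 3559.0 and 2635.9 in vehicle animals, and its log2 change was -0.80 ± 0.27 (adjusted p = 0.32). These are other animals than those dosed for 15 days.

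FCN3 at 4 days had 630.2 and 435.8 at 400 mg/kg/day, against 830.2 and 800.0 in vehicle animals, for a log2 change of -0.62 ± 0.35 (adjusted p = 0.77), which was -0.36 without replicate 2 at 400 mg/kg/day. CD5L had 73.7 and 84.2 at 400 mg/kg/day, against 139.0 and 77.9 in vehicle animals, which overlapped. Its log2 change of -0.35 ± 0.50 became 0.01 without vehicle replicate 1. TEK 1595_at lay the other way, with 167.4 and 149.1 at 400 mg/kg/day, against 70.8 and 20.7 in vehicle animals, for a log2 change of 1.62 ± 0.67 (adjusted p = 0.53).

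Groups without overlap at 4 days counted 6 of 17 tested probe sets lower and 5 of 17 higher, where 23.6 and 18.4 percent of all tested probe sets were so placed. The markers' median log2 change at 4 days was -0.28, against -0.05 over all tested probe sets. It was -0.01 without replicate 2 at 400 mg/kg/day. The beta-actin ratio was also higher at 400 mg/kg/day than in vehicle animals at 4 days, with ranges of 1.02 to 1.21 and 0.75 to 0.99, and its part in these values was not tested. The same ratio for GAPDH overlapped between these groups, with ranges of 0.97 to 1.17 and 0.95 to 0.99.

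The difference between the 15-day and the 4-day effect of 400 mg/kg/day was tested directly and called no marker, nor any other probe set, with limma. An unadjusted p under 0.05 on the lower side was found for 1 of 17 probe sets, against 1.58 percent of all. It was PECAM1 37398_at, whose log2 change was lower by 1.32 ± 0.62 at 15 days than at 4 days (adjusted p = 0.999 from limma). For VCAM1 41433_at the difference was -0.33 with a 95% interval of -1.22 to 0.56, and for CD14 it was 0.12 with an interval of -0.59 to 0.83. For CD5L it was -0.97 with an interval of -2.27 to 0.33. With 2 animals per group at 4 days, these intervals are wide.

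Vehicle animals at 15 days were also set against vehicle animals at 4 days. No marker was called, where 0.863 percent of all tested probe sets were, and none had an unadjusted p under 0.05 by limma. PECAM1 37398_at had 389.0, 241.8 and 410.1 at 15 days, against 196.2 and 171.1 at 4 days, for a log2 change of 0.83 ± 0.45 (adjusted p = 0.46). The median over the markers was 0.03.

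Other genes were taken from lists of further endothelial markers, further macrophage markers, and ligands and partners of the 10. Of 40 further endothelial genes, 21 were tested, and none was called at 400 mg/kg/day against vehicle at 15 days. Their median log2 change was -0.30, and 15 of 21 were below 0. An unadjusted p under 0.05 from limma was reached by 2, both lower: FCN2, the gene of ficolin-2, and TIE1, a receptor related to TEK. Of all tested probe sets, 5.84 percent had such a p on the lower side. FCN2 had 62.6, 105.0, 98.3 and 105.4 at 400 mg/kg/day, against 211.4, 198.5 and 203.5 in vehicle animals. Every FCN2 value at the top dose was far below those of the vehicle animals, but the log2 change of -1.04 had an adjusted p of 0.12. TIE1 gave -0.94 (adjusted p = 0.34). The endothelial genes VWF, KDR and CD34, named after their values were seen, gave -0.34, -0.18 and -0.04. The log2 changes of the 21 genes ran from -1.07 to 0.55.

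Of 40 further macrophage genes, 20 were tested, and none was called at 400 mg/kg/day against vehicle at 15 days. An unadjusted p under 0.05 from limma was reached by 4, all lower, where 5.84 percent of all tested probe sets were. Their median was -0.20, and 14 of 20 were below 0. The 4 were CD74, the invariant chain of antigen presentation, the scavenger receptor MARCO, LAPTM5 and FCER1G, with log2 changes of -0.71, -1.33, -0.59 and -0.90 and adjusted p of 0.16, 0.22, 0.26 and 0.28. CD68, a lysosomal protein of macrophages, gave -0.00. The log2 changes of the 20 genes ran from -1.33 to 0.51. In the slope over dose, 7 of the 20 had an unadjusted p under 0.05 on the lower side, where 6.82 percent of all tested probe sets did, and none was called.

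MARCO was called in 1 comparison, 400 against 3 mg/kg/day. It had 17.0, 17.6, 22.5 and 32.5 at 400 mg/kg/day, against 160.9, 212.3, 160.8 and 116.2 at 3 mg/kg/day. The groups stood far apart, and the log2 change was -2.21 ± 0.46 (adjusted p = 0.0061 from limma). All MARCO values at 400 mg/kg/day lay below the limit for testing, an intensity of 39.7. Vehicle animals at 15 days had 58.3, 44.6 and 175.9, a wide range between these groups, and the 400 mg/kg/day log2 change against them was -1.33 (adjusted p = 0.22).

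Of 31 ligands and partners, 21 were tested. HPX, the gene of the haem carrier haemopexin, was the 1 called at 400 mg/kg/day against vehicle, at -1.34 ± 0.27 (adjusted p = 0.0068 from limma). It is made by hepatocytes and also stands in the hepatocyte list. HPX had 3180.5, 3830.1, 4578.9 and 6451.0 at 400 mg/kg/day, against 12901.3, 9689.4 and 10833.6 in vehicle animals. HP, the gene of haptoglobin, whose complex with haemoglobin CD163 binds, was called lower at 400 against 3 mg/kg/day, at -1.09 ± 0.29 (adjusted p = 0.030), and its probe set may share signal with a haptoglobin-related gene. The FLT1 ligands VEGFA, VEGFB and PGF gave -0.26, -0.32 and 0.44 at 400 mg/kg/day against vehicle, the TEK ligand ANGPT1 gave 0.03, and the FCN3-associated proteases MASP1 and MASP2 gave 0.02 and 0.35, none of them called.

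**Figure D5:**
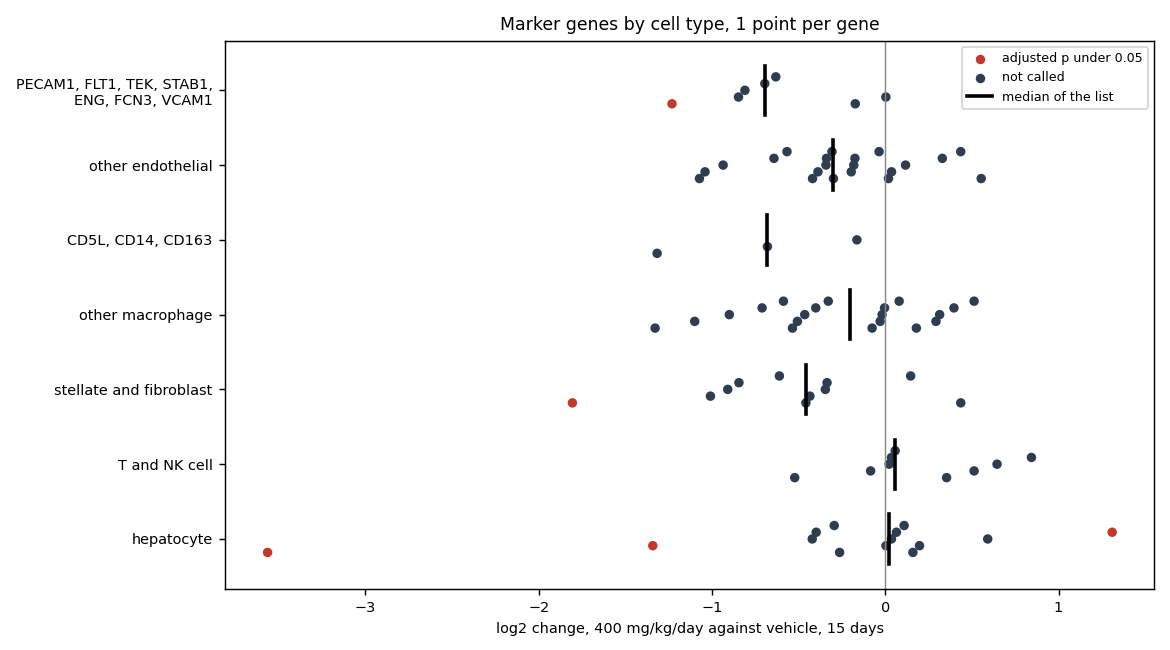
Log2 change at 400 mg/kg/day against vehicle at 15 days (horizontal axis) for each tested gene of 7 lists, 1 row per list; points are genes, red those with an adjusted p under 0.05, and black bars are list medians. The medians of the further endothelial and macrophage genes are -0.30 and -0.20, and VCAM1 is the red point of the top row.

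Markers of other cells were read in the same comparison. A summed intensity follows its brightest probe sets, so the count of genes below 0 is given beside it. The sum of 11 stellate and fibroblast genes ran from 2554.8 to 3341.4 at 400 mg/kg/day, against 3987.4 to 6325.8 in vehicle animals at 15 days. Of these genes 9 of 11 were below 0, with a median log2 change of -0.46, and TIMP1, an inhibitor of matrix proteases, was called lower at -1.81. The sum of 14 hepatocyte genes ran from 73200.1 to 88542.7 at 400 mg/kg/day, against 101184.2 to 113423.9 in vehicle animals, but 6 of 14 genes were below 0 and the median log2 change was 0.02. Of the hepatocyte genes CYP2E1 and HPX were called lower and CYP3A4 higher. The sum of 9 T and NK cell genes ran from 1235.0 to 1395.6 at 400 mg/kg/day, against 1014.0 to 1166.9 in vehicle animals. There 2 of 9 genes were below 0, with a median log2 change of 0.06, no call, and none at an unadjusted p under 0.05 from limma.

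Stellate and fibroblast genes were also called where VCAM1, CD14 and CD5L were. In the slope over dose, SPARC and BGN, both genes of matrix proteins, and TIMP1 were called lower, at -0.26, -0.27 and -0.42 per dose step. At 400 against 3 mg/kg/day SPARC and BGN were called lower, at -1.31 and -1.39. TIMP1 was also called lower at 150 mg/kg/day against vehicle, at -2.03, and in the mean of the 4 doses, at -1.69. Among hepatocyte genes, ASGR2 was called lower in the slope, at -0.13, and at 400 against 3 mg/kg/day, at -0.67, and CYP2E1, HPX and CYP3A4 were called in both in the same direction as against vehicle. The neutrophil list had 1 call, LCN2, higher at 400 than at 3 mg/kg/day by 2.02 on the log2 scale. No value of these lists was 0 on any array. The part of other cells in the changes of VCAM1, CD14 and CD5L was not tested.

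The sum of the 3 macrophage markers ran from 1540.1 to 2368.9 at 400 mg/kg/day, against 2486.7 to 4361.7 in vehicle animals at 15 days. All 3 genes had a log2 change below 0. This sum was mostly CD14, which alone ran from 1393.5 to 2171.9, against 2203.7 to 4153.5, while CD163 overlapped between the groups. The sum of the 20 further macrophage genes ran from 3749.5 to 5167.6, against 4339.8 to 5892.7 in vehicle animals, and these overlapped. Among them 14 of 20 had a log2 change below 0. For the 7 endothelial markers the sum ran from 1611.4 to 1876.3, against 2476.9 to 2767.2 in vehicle animals. Of these genes 6 of 7 had a log2 change below 0. FCN3 and STAB1 were the brightest probe sets of this sum, and STAB1 overlapped between the groups. The 21 further endothelial genes ran from 2087.8 to 2802.6, against 2624.8 to 2940.5 in vehicle animals, with overlap again, and 15 of 21 were below 0. The smaller sets of B and plasma cell, neutrophil, cholangiocyte and red cell genes had no call at 400 mg/kg/day against vehicle.

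For each marker the genes with the most similar pattern were sought among the other tested genes, by Pearson r of log2 values over the 23 arrays, which span all doses and both days and so share the dose groups and each array's scaling. The r values are descriptions only. The nearest to VCAM1 were the complement gene C2 (r = 0.85) and the transcriptional repressor HES1 (r = 0.79). HES1 was itself called lower at 400 mg/kg/day against vehicle at 15 days, at -1.40 ± 0.37 (adjusted p = 0.045 from limma), and C2 was not, at -0.46 ± 0.15 (adjusted p = 0.15). The nearest to CD5L were FCN2 (r = 0.80) and GSTZ1 (r = 0.72), and to CD14 they were ZCCHC24 and SETD3 (r = 0.81 for both).

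For the other markers the nearest genes were TPM2 for PECAM1 (r = 0.79), RBPMS for FLT1 (r = 0.79), WSB1 for TEK (r = 0.72), APC for STAB1 (r = 0.72), MADD for ENG (r = 0.81), CDR2L for FCN3 (r = 0.76) and SLC25A13 for CD163 (r = 0.69). None of these was another of the 10 markers by construction of the search. Probe sets of the same marker had r between -0.15 and 0.36 across the 9 pairs.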

How the data were processed

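Liver RNA of 23 cynomolgus monkeys was measured on human arrays, 1 per animal. The authors deposited 1 linear intensity per probe set, a MAS5 signal per the submitters' processing notes, which name no version or settings. Trimmed means of the arrays (2% cut at both ends) were all within 150.065 to 150.08, which shows a common scaling, and none was added. Of 12625 probe sets, 10961 named 1 gene, 545 several and 1119 none. The 67 control probe sets were left out. Log2 was taken after adding a pseudocount of 16, which understates changes of low probe sets, and probe sets with a mean at or above the 40th percentile of the other 12558 (5.80, an intensity of 39.7) were tested.

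A means model for 7 dose and day groups, taken from the sample titles, was fitted to all arrays with limma 3.58.1 in R 4.3.3 with an intensity trend (16 residual and 6.63 prior degrees of freedom), and 10 two-sided contrasts were adjusted over 7535 probe sets by the Benjamini-Hochberg method. The script was tested on simulated data. SE and 95% intervals come from that fit, and SD is over the animals of a group, whose number limits the precision.

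The 10 markers and all lists were chosen with earlier results of these data known. All markers are named with every probe set. Of the other lists every called gene is named, with the 2 lowest unadjusted p values where there was no call, and LAPTM5, FCER1G, VWF, KDR, CD34, CD68, the ligands and MASP genes were named after their values were seen. Per marker the nearest genes by r are named. Alternatives were other pseudocounts, no filter, quantile or equal-median scaling, array weights, a replicate block, a fit of 1 day alone, other probe sets, a slope on log10 dose, and leaving out each animal. Replicate numbers did not pair the animals: of 58 same-numbered pairs from different groups, 0 had a correlation of deviations over 0.1 (range -0.087 to 0.072).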

Additional observations from a re-analysis of the deposited data

Results flagged for a closer look

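Single animals that stood far from the other 3 of their group were looked for with Dixon's ratio at its 95% critical value in 80 groups of 4, and 6 were found, where chance gives about 1 in 20. No cause was tested for any of them.

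VCAM1 was the gene concerned in 2 of these groups, both at the top dose after 15 days. On probe set 41433_at replicate 3 had 101.2, above the other values of 58.4 to 64.9. On probe set 583_s_at replicate 4 had 11.1, below the other values of 44.9 to 48.3. They are different animals, and each was unremarkable on the other VCAM1 probe set.

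For CD5L at 30 mg/kg/day, replicate 4 had 120.6, above the other values of 47.4 to 59.9. The same animal had 108.1 on the untested FLT1 probe set 1963_at, above the other values of 25.8 to 39.0, and its array had the lowest mean correlation with its own group. For TEK probe set 1595_at at 30 mg/kg/day, replicate 2 had 159.4, above the other values of 28.6 to 48.2. For CD163 probe set 31438_s_at at 3 mg/kg/day, replicate 1 had 85.1, below the other values of 185.7 to 200.8.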

How the results depend on the processing

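VCAM1 at 400 mg/kg/day against vehicle at 15 days kept its direction and its call under other pseudocounts, no filter, both rescalings, array weights, the replicate block and a fit of the 15-day arrays alone, and lost the call without vehicle replicate 2. Its slope kept its call under all of these. In this comparison array weights and the replicate block each called 2 markers, adding CD5L, at -1.35 (adjusted p = 0.034) and -1.50 (adjusted p = 0.021). The replicate block changed no other count of called markers. Replicate numbers did not pair the animals, so this block stands for no known pairing and its CD5L call is not relied on. Scaling each array to the same median left 0 called at 400 against 3 mg/kg/day and moved the median of all probe sets by at most 0.098. Leaving out single animals gave counts of 1 to 3 for the slope and 0 to 2 for 400 against 3 mg/kg/day.

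The markers' median log2 change at 400 mg/kg/day against vehicle at 15 days was -0.24 with a pseudocount of 64, -0.23 with no filter and -0.55 with array weights, and at 400 against 3 mg/kg/day it was -0.52 with a pseudocount of 1. Without single animals the median ran from -0.58 to -0.18 at 400 mg/kg/day and from -0.43 to -0.046 at 3 mg/kg/day against vehicle at 15 days, from -0.33 to -0.011 at 4 days, from -0.51 to -0.19 for the difference between the days, and from -0.10 to 0.15 between vehicle animals.

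Values near 0 changed sign. FLT1 at the top dose after 15 days was -0.030 with array weights and -0.038 with the replicate block, and ran from -0.11 to 0.19 without single animals. The FLT1 slope was 0.0039 with quantile and 0.018 with equal-median scaling, and ran from -0.025 to 0.036 without single animals. The STAB1 slope was 0.016 with equal-median scaling, 0.0046 on log10 dose, and ran from -0.027 to 0.026. CD163 ran from -0.44 to 0.12 at 400 mg/kg/day and from -0.090 to 0.022 for the slope, CD5L from -0.71 to 0.014 at 4 days, and PECAM1 from -0.091 to 0.61 at 400 against 3 mg/kg/day.

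Other probe sets of a gene also turned the sign. PECAM1 268_at gave 0.12, 0.28, 0.45 and 0.18 at 400, 150, 30 and 3 mg/kg/day, 0.033 for the slope and -0.068 at 400 against 3 mg/kg/day. At 4 days PECAM1 37397_at gave -0.13, FLT1 1964_g_at -0.28, FLT1 991_g_at -0.73, TEK 1595_at 1.62 and CD163 36884_at 0.52. For the slope FLT1 1964_g_at gave 0.040, FLT1 991_g_at 0.055 and TEK 1595_at 0.0052. The causes were not tested. Human probes, groups of 2 to 4 animals, and signals near the intensity filter (TEK 1595_at, CD163 36884_at, PECAM1 268_at) limit what these values show. The CD5L signal at 400 mg/kg/day, with a mean of 39.8, was also near that filter (39.7). That of VCAM1 583_s_at at this dose after 15 days, with a mean of 37.6, lay below it.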
